A study of Mus musculus with 2 samples.

Results

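Replication timing scores were read for the genes of the protein synthesis factors in mouse embryonic stem cells. The members were the protein-coding genes in a RefSeq table of the mouse genome whose symbols begin with Eif1 to Eif6, with Eef1 or with Eef2, together with the release factor gene Etf1. There were 72 of them among 21770 protein-coding genes on the chromosomes, and all 72 had a score, as did 21221 protein-coding genes in all. The cells were of the 46C line from the 129P2/Ola strain, kept in serum with leukemia inhibitory factor. Both groups came from this line and had the same treatment, 2 h in 50 µM of the thymidine analogue bromodeoxyuridine (BrdU), which marks newly made DNA. They differed only in the stage at which cells were sorted by DNA content, early S phase for 1 library and late S phase for the other, and BrdU-labelled DNA of 10000 cells was precipitated, amplified and sequenced. The authors joined both libraries in a single early against late score per genomic position, smoothed over 300 kb. Positive scores are read here as early replication, from the order of the fractions in the name of the table.

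Each gene therefore has 1 value, from the position nearest its midpoint, and no error between experiments can be given. No test of any difference was possible, and every comparison below is a description of these libraries. Its scale and its zero are not stated in the sources used here, and read depth is unknown. Scores over the genome ran from -2.19 to 2.20, and 43.1% of 384794 positions lay above 0. The assay reads DNA and holds no expression values, so the labelled cell type was not checked against marker genes.

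Protein synthesis starts when eIF2, a GTP-binding protein, brings the initiator tRNA to the small ribosomal subunit, on which eIF1, eIF1A, eIF3 and eIF5 have gathered. The eIF4 proteins bind the cap of the mRNA and unwind its leader, the complex scans to a start codon, and eIF5B joins the large subunit. The elongation factors eEF1 and eEF2 then deliver aminoacyl-tRNAs and move the ribosome along, until a release factor reads the stop codon. Most of these factors are made by every dividing cell. Several also have gene copies that arose by duplication or by reverse transcription of an mRNA, some of them used mainly in germ cells, brain or muscle. In mammalian cells, early replicating regions tend to be rich in genes and in transcription, and late replicating regions poor in both.

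Translation factor genes mostly had early scores. Of the 72 genes, 68 (94.4%) had a score above 0, against 15594 of 21221 protein-coding genes (73.5%). A score above 1 was found for 58 of the 72 (80.6%), against 50.5% of protein-coding genes. Their median was 1.53 (95% order-statistic interval over genes 1.37 to 1.57, which covers no experimental error), and the median of all protein-coding genes was 1.02. Scores above that general median were found for 57 of the 72. The 4 genes below 0, where 26.5% of protein-coding genes lie, were Eif3j2, Eif3e, Eif5a2 and Eif4e3. With the zero moved to the median autosomal position, Eif5a2 and Eif4e3 turned to 0.14 and 0.26, and 70 of 72 members and 78.5% of protein-coding genes lay above it. The earliest was Eif4b with 2.17, which ranked 3 among all 21221 protein-coding genes.

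**Figure D1:**
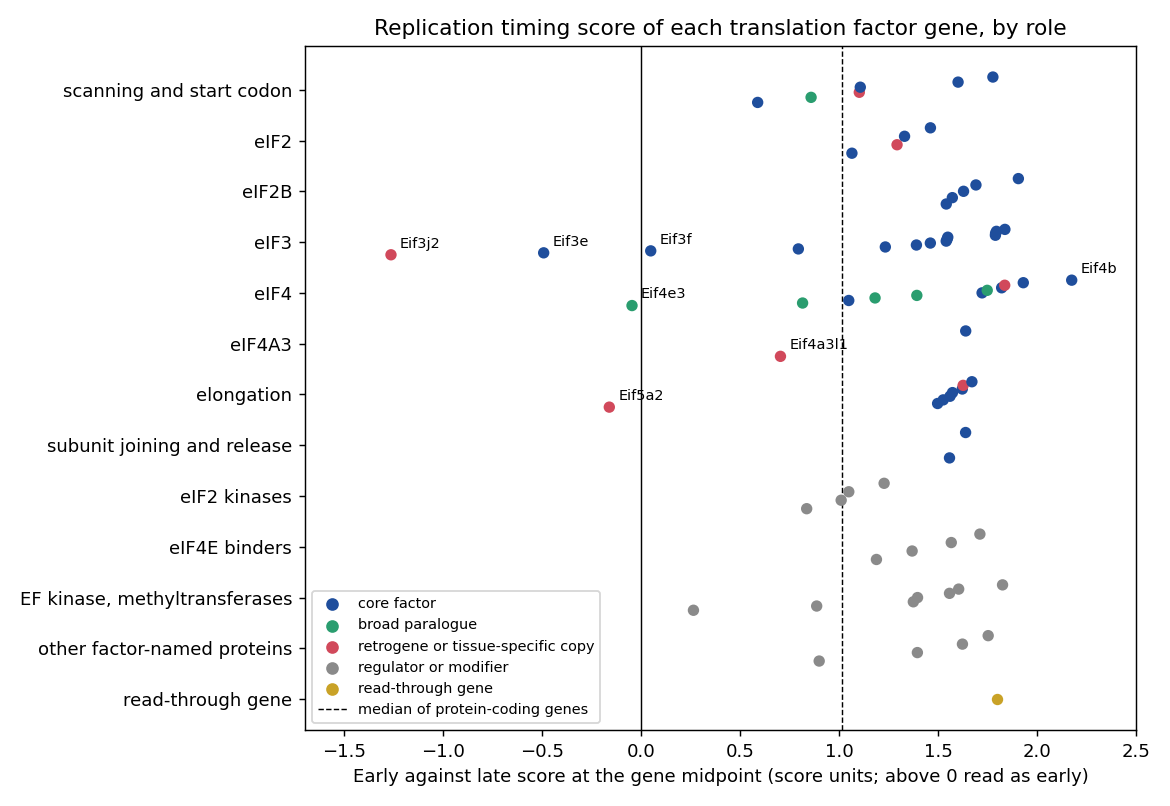
Early against late score at the midpoint of each of the 72 translation factor genes (horizontal axis, score units), 1 point per gene, grouped by role and coloured by class. The dashed line is the median of protein-coding genes (1.02), and 4 points lie left of 0. The eIF2B and elongation core genes, Etf1 and Eif6 all lie between 1.50 and 1.91. The row of subunit joining and release holds Etf1 and Eif6, and Eif5b is in the row of scanning and start codon.

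The members were classed here as 39 core factors, 6 broad paralogues, 7 retrogene or tissue-specific copies, 19 regulators and modifying enzymes, and 1 read-through gene. Use across tissues was not examined, and Eif2s3y stands among the copies as the Y-linked counterpart of Eif2s3x. Among core factors 38 of 39 lay above 0, and their median was 1.56 (1.50 to 1.64). All 19 regulators were above 0 as well, at a median of 1.37 (1.01 to 1.60). Of the 7 copies 5 (71.4%) lay above 0, a share near the 73.5% of all protein-coding genes. Their median was 1.10 with a range from -1.26 to 1.84. The 6 broad paralogues had a median of 1.02, from -0.046 to 1.75, with 5 above 0 (83.3%). The medians of copies and broad paralogues were thus near the 1.02 of all protein-coding genes. Copies thus lay both below the lowest core gene and among the earliest ones. The difference of the medians of core genes and copies was 0.46. It was 0.87 at the higher-coordinate gene ends and 0.89 with the score averaged over each gene and 50 kb on each side.

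Among the genes that act in scanning and start codon choice, Eif1 was the earliest with 1.78. The protein eIF1 guards against wrong start codons. Eif5, which encodes the factor that triggers GTP hydrolysis by eIF2, had 1.60. Eif1ax, the X-linked gene of eIF1A, had 1.11, where the median position of chromosome X had -0.68. Eif5b, the gene of the GTPase that joins the ribosomal subunits, was the lowest of the group with 0.59 (chromosome 1, 37998010 to 38055579), below 1 although early.

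The 3 subunits of eIF2 itself had moderately early scores. The alpha subunit gene Eif2s1, whose product is phosphorylated under stress, had 1.06, the beta subunit gene Eif2s2 1.33 and the X-linked gamma subunit gene Eif2s3x 1.46. The 5 subunits of eIF2B, which reloads eIF2 with GTP, were all higher than these 3. They ran from 1.54 for Eif2b2 to 1.91 for Eif2b3, with Eif2b5, the gene of the catalytic subunit, at 1.69. The eIF2B genes lie on 4 chromosomes and no pair of them within 1 Mb.

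The eIF3 complex, the largest initiation factor, was the most divided of the roles. Above 0 were 12 of its 13 core subunit genes (92.3%, against 73.5% of all protein-coding genes). Their median was 1.54 (0.79 to 1.79) with an SD over genes of 0.72. All protein-coding genes had a median of 1.02 and a wider SD of 1.00. Eif3l (1.84), Eif3k, Eif3b and Eif3c (each 1.79) were the earliest. The scaffold subunit gene Eif3a had 1.39, and Eif3g, which encodes an RNA-binding subunit, had 1.46. Eif3h had 0.79 (chromosome 15, 51786563 to 51865461) and Eif3f, whose product belongs to the same module of the complex as that of Eif3h, had 0.048 (chromosome 7, 108934415 to 108941942). Eif3e, also known as Int6, was the only core factor gene below 0, with -0.49 (chromosome 15, 43250040 to 43282736). Subunits of this single complex were therefore spread over 2.33 score units between Eif3e and Eif3l.

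The cap-binding and unwinding machinery held the earliest members. Eif4b, whose product stimulates the helicase eIF4A, had 2.17 (chromosome 15, 102073773 to 102097173). The main helicase gene Eif4a1 had 1.93 and Eif4h, which encodes a relative of eIF4B, had 1.82. The scaffold gene Eif4g1 had 1.72. Eif4e, the gene of the cap-binding protein, was the lowest core gene of the group with 1.05. Its paralogue Eif4e2, whose product binds caps and represses translation, had 1.75.

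Core elongation factor genes had closely similar scores. The 6 genes ran from 1.50 to 1.67, with an SD over genes of 0.063, and lie on 6 chromosomes. The upper quartile of all protein-coding genes was 1.52 and their highest score 2.19. With the copies Eef1a2 and Eif5a2 included, the 8 elongation genes began at -0.16 and had an SD of 0.62. Eef1a1, which encodes the carrier of aminoacyl-tRNA and is among the most highly expressed genes of most cells, had 1.53. The genes of its exchange factor subunits had 1.50 (Eef1b2), 1.56 (Eef1d) and 1.57 (Eef1g). Eef2, the gene of the translocase, had 1.67, and Eif5a, whose product keeps ribosomes moving through difficult peptides, had 1.62. The release factor gene Etf1 (1.56) and Eif6 (1.64), which encodes a factor that keeps ribosomal subunits apart, lay in the same range.

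Regulators of these factors all had scores above 0, where 73.5% of protein-coding genes lie. The 4 eIF2 kinases, which shut down initiation in response to different stresses, had a median of 1.03, near the 1.02 of all protein-coding genes. The median was 1.47 for the eIF4E-binding proteins. The endoplasmic reticulum stress kinase gene Eif2ak3 had 0.84, the amino acid sensor gene Eif2ak4 (also called Gcn2) 1.01, the double-stranded RNA sensor gene Eif2ak2 1.05 and the heme-regulated kinase gene Eif2ak1 1.23, and all 4 lay below the lowest of the eIF2B genes. Eif2ak4 crosses a gradient, from 0.74 at the low-coordinate side of the gene to 1.34 at the other. Genes of the eIF4E-binding proteins ran from 1.19 for Eif4enif1, which encodes a shuttling protein, to 1.71 for the repressor gene Eif4ebp2. Among the kinase and methyltransferase genes that act on elongation factors, Eef1akmt4 was the highest with 1.83. The lowest was Eef1aknmt, which encodes a methyltransferase of eEF1A, at 0.26, and Eef2k, the gene of the kinase that inhibits eEF2, had 1.37. Eif2a, an alternative initiation factor gene, had 1.62, and Eif2d, linked to reinitiation, 1.40. Eef1e1, whose product sits in the multi-synthetase complex, had 0.90.

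Some members share a neighbourhood, and their scores are not separate measurements. On chromosome 16 Eif2b5, Eef1akmt4, its read-through gene Eef1akmt4-ece2 (1.80) and Eif4g1 have midpoints within 179 kb. On chromosome 11 Eif4a1 and Eif5a are 250 kb apart, inside the smoothing width. With genes within 1 Mb joined as 1 unit there were 67 units, of which 63 lay above 0.

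The copies were set against the core gene that each resembles. Of the 7 copies, 5 had a lower score than their core gene and 2 a higher one. Of all protein-coding genes, 51.1% lay below Eif4e, the lowest of these 7 core genes, and 85.3% below Eif4a3, the highest. Differences (copy minus core) ran from -2.81 to 0.79 with a median of -0.17, the value of the chromosome Y pair. With scores averaged over each gene and 50 kb on each side, 4 copies were lower and 3 higher, since the difference of Eif1a from Eif1ax turned from -0.0050 to 0.052, and the median difference was -0.93. The widest gap was that of the eIF3j genes. Eif3j1 on chromosome 2 had 1.55, while Eif3j2, a short gene on chromosome 18 (43475418 to 43477836), had -1.26, so that only 4.8% of protein-coding genes were later. Eif5a2, which encodes a second eIF5A protein of restricted expression, had -0.16 (chromosome 3, 28781032 to 28798846), 1.78 below Eif5a. Eif4a3l1, a copy of the exon junction helicase gene Eif4a3, had 0.70 (chromosome 6, 136327539 to 136329983) against 1.64. In these 3 pairs the copy stood well apart from the core gene.

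The other copies lay closer to their core genes or above them at the midpoint. Eif4e1b, known for its expression in oocytes, was among the earliest members with 1.84 (chromosome 13, 54783994 to 54788459), 0.79 above Eif4e. Eef1a2, which replaces Eef1a1 in neurons and muscle, had 1.63 (chromosome 2, 181141758 to 181157015) against 1.53. Eif1a, an autosomal counterpart of Eif1ax on chromosome 18, had 1.10 against 1.11. The Y-linked gene Eif2s3y, known for its role in spermatogonia, had 1.29 against 1.46 for Eif2s3x, but averaged over the gene and 50 kb on each side it had 0.49, and the difference from Eif2s3x was then -0.93. Of the copies named here as tissue-restricted, Eif5a2 lay below 0 and Eif4e1b and Eef1a2 above 1.5.

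Among broad paralogues, 5 of 6 had lower scores than the core gene. Eif1b had 0.86 (0.92 below Eif1), Eif4a2 1.18 (0.75 below Eif4a1), Eif4g2 0.82 and Eif4g3 1.39, both below Eif4g1. Eif4e3, which encodes an atypical cap-binding protein, had -0.046, and Eif4e2 was the exception. Eif4e enters 3 of the pairs and Eif4g1 enters 2, so the pairs are not independent. Over all 13 pairs, the paralogue was lower in 10, or in 9 with scores averaged over the gene. Most protein-coding genes lay below these core genes too, from 51.1% below Eif4e to 99.4% below Eif4a1. Whether paralogues lay lower than other genes would was not tested.

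**Figure D2:**
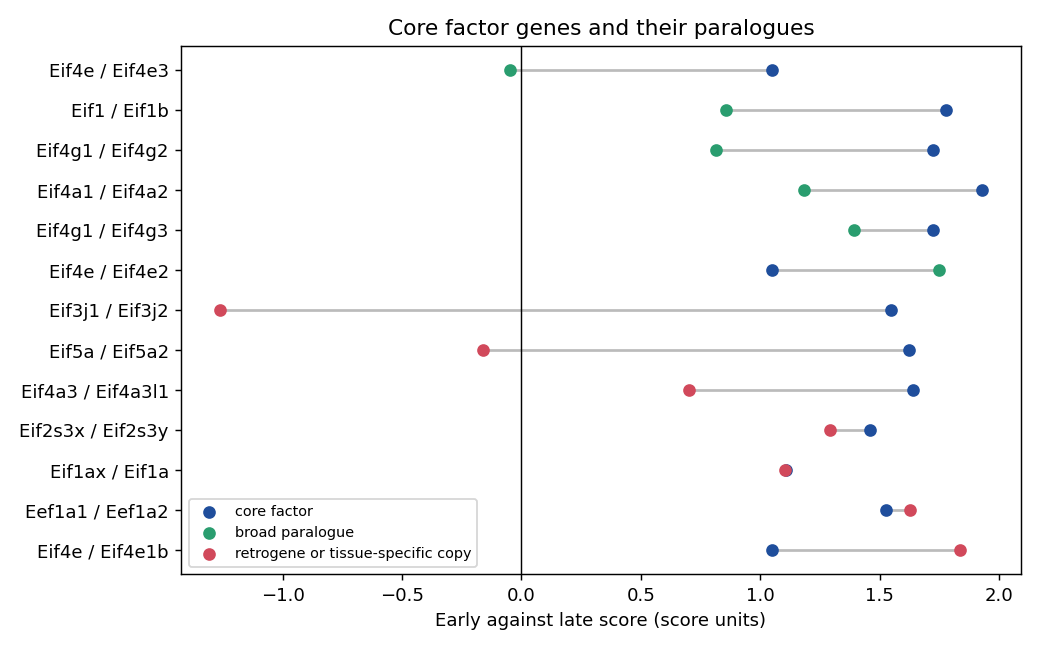
Early against late score (horizontal axis, score units) of each core gene and its paralogue, 1 row per pair, with a grey line joining both values. The paralogue is the lower point in 10 of 13 rows, by 2.81 for Eif3j2, and the higher point for Eif4e2, Eef1a2 and Eif4e1b. Of all protein-coding genes, from 51.1% (Eif4e) to 99.4% (Eif4a1) lie below the core genes shown.

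The promoters of copies held fewer CG dinucleotides than those of core genes in 3 of 4 cases, but not in the order of the scores. RefSeq promoter windows of the GRCm38.p6 build (250 bases before to 50 after the start, the first listed window of a gene) were matched for 55 of the 72 members. The count of CG dinucleotides in the 300 bases was used, since a high count marks the CpG-rich promoters usual for housekeeping genes. The median was 24 in the 31 core genes with a window, 11 in the 4 copies and 14 over 17029 protein-coding genes (17 in those above 0, 3 in those below). The 4 copies had 3 (Eif4a3l1), 8 (Eef1a2), 14 (Eif2s3y) and 34 (Eif5a2), and their core genes had 42, 22, 21 and 11. Eif5a, with 11, has further start sites whose windows were not used. Eif4a3l1 scored 0.94 below Eif4a3, while Eef1a2 scored close to Eef1a1, 0.10 above it. The 250 bases before the start are shown for these 2 pairs, 5′ to 3′ on the strand of the gene with each CG in capitals.
Eif4a3 (chr11:119300044-119300293, minus strand): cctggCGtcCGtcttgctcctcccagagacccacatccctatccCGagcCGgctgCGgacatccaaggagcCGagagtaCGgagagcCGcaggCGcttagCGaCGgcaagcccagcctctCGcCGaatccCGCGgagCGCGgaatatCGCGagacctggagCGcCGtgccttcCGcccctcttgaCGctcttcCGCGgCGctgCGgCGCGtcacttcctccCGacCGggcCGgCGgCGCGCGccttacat
Eif4a3l1 (chr6:136327289-136327538, plus strand): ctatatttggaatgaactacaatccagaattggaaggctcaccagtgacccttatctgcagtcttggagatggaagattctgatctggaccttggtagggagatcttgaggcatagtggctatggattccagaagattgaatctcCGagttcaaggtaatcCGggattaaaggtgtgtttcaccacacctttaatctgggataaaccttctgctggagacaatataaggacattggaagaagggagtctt
Eef1a1 (chr9:78481725-78481974, minus strand): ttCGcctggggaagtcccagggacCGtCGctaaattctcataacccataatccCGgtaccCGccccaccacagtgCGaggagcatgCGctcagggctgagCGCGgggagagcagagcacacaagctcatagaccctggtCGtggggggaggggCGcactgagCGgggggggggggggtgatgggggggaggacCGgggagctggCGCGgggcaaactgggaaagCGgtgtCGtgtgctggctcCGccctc
Eef1a2 (chr2:181157016-181157265, minus strand): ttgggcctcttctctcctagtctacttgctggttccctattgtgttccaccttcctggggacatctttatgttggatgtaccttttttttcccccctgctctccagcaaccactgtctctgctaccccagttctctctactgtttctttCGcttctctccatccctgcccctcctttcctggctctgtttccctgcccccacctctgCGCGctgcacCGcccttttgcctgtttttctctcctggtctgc
These stretches hold 36 CG dinucleotides for Eif4a3 and 2 for Eif4a3l1, 18 for Eef1a1 and 4 for Eef1a2. Both copies are poor in CG beside their core genes. Eef1a2 had a score of 1.63 and Eif4a3l1 one of 0.70. Eif5a2, below 0, had 34 in its 300 bases, more than the 22 of Eef1a1, and Eif3f, near 0, had 12. Whether the CG count of a promoter goes with the score, which is smoothed over 300 kb, was not tested.

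Short motifs were counted in the same windows on both strands. Eef1akmt4 and its read-through gene Eef1akmt4-ece2 share a start site, so the same window entered for both, with a GC box and a CCAAT box. The ETS motif CCGGAAG was found in 15 of 55 members (27.3%) and in 12.1% of protein-coding genes with a window (14.8% of those above 0). It holds a CG and so overlaps the CG count, whose median was 23 in the 55 members and 17 in protein-coding genes above 0. The GC box GGGCGG, which also overlaps the CG count, was found in 40 (72.7%) and in 47.4% (55.1% of those above 0). The TATA box motif TATAAA was found in 5 (9.09%) and in 13.3% (9.28% of those above 0), and the CCAAT box motif CCAAT in 18 (32.7%) and in 39.2% (38.9% of those above 0). A match is a description of these letters and not of a bound factor.

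The surroundings of the late members were not alike. Eif3j2 lay inside a late run of 1.57 Mb, 765 kb from the nearest change of sign, between the late neighbours Dpysl3 (-1.13) and Jakmip2 (-0.97). Scores within 500 kb of it ran from -1.45 to -0.77, with -0.87 at 300 kb to one side and -1.01 to the other. Eif3e lay in a late run of 8.69 Mb, with 2 other protein-coding genes within 500 kb. Its neighbours Rspo2 (-0.98) and Emc2 (-1.29) were later than it, and scores 300 kb to either side were -1.08 and -1.12. The score at Eif3e was therefore a local high within a late region, 0.022 below the highest score within 500 kb.

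Eif5a2 had the same form. Its score was 0.0020 below the highest within 500 kb, scores 300 kb away were -0.96 and -1.01, and Slc2a2 on one side had -0.30. Its other neighbour is Rpl22l1, a ribosomal protein paralogue gene 6.66 kb away with the same score of -0.16. Gaps under 0.1 to the highest score within 500 kb were found for 23 of 72 members (31.9%) and for 15.8% of protein-coding genes. Among protein-coding genes below 0 the share was 7.25%. This measure was chosen after the profiles of these genes had been seen.

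Eif4e3 and Eif3f lay near changes of sign. Eif4e3 was 28.4 kb from a change of sign, with 0.020 at its lower-coordinate end and -0.0361 at the higher one, and its side of 0 is not settled by this score. Eif3f was 17.3 kb from a change of sign, although 21 other protein-coding genes lay within 500 kb. It lay on a step near 0 between -0.99 at 500 kb below it and 1.08 at 500 kb above it. The score was still -0.10 at 300 kb above it. Eif4a3l1 lay on the flank of a small early run of 0.52 Mb, with -1 at 300 kb below and 0.93 at 300 kb above it. The nearest gene on the lower side, Grin2b, a glutamate receptor gene 154 kb away, had -0.94, and E330021D16Rik, 70.3 kb away on the other side, had 1.16.

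**Figure D3:**
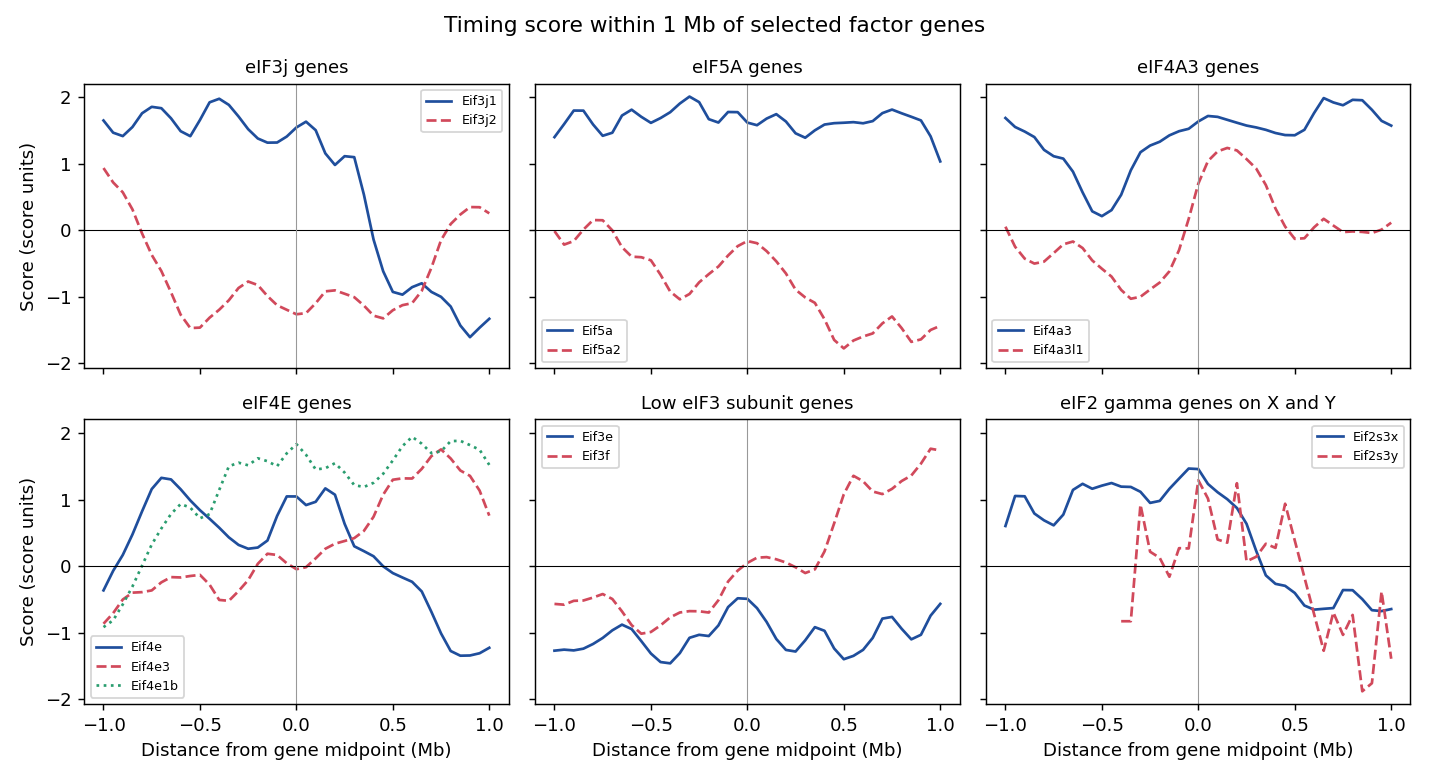
Early against late score (vertical axes, score units) by distance from the gene midpoint (horizontal axes, Mb) for selected factor genes, in steps of 50 kb. The lines of Eif3e and Eif5a2 have a local peak at the gene that stays below 0, at -0.49 and -0.16, while Eif3j2 lies low at -1.26 and the line of Eif2s3y is jagged.

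Positions on chromosome Y were few and uneven. The median step between neighbours no more than 7 kb apart was 0.254 there and 0.0136 on chromosome X. Eif2s3y had 1.29 at its midpoint, but 1.00 and 0.19 at its ends, and the 49 positions over the gene and 150 kb around it ran from -0.80 to 1.40 with a median of 0.40. Kdm5d and Uty beside it had 0.54 and 0.91. The copies without Eif2s3y had a median of 0.90, with 4 of 6 above 0 (66.7%, against 73.5% of all protein-coding genes).

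Core genes lay in gene-rich surroundings more than copies did. The median number of other protein-coding genes within 500 kb was 21 for core genes, 8 for copies and 11.5 for broad paralogues. It was 14 for regulators and 15 for all protein-coding genes. Where 20 or more genes lay within 500 kb, all 29 members lay above 0 with a median of 1.67, and 81.0% of all 8315 such genes lay above 0 with a median of 1.48. With 10 to 19 such neighbours all 29 members lay above 0 as well (82.2% of all genes), and with 5 to 9 it was 9 of 10 (70.2%), the exception being Eif3j2. Of the 4 members with fewer than 5 neighbours only Eif1ax was above 0 (31.1% of all genes). The low scores of Eif3e, Eif5a2 and Eif4e3 were found in the class of gene number where most genes were late. That of Eif3f was found in the class where 81.0% of genes lay above 0. The scores around Eif3f itself were nevertheless below 0 on its lower-coordinate side, such as -0.70 at 200 kb below it. Whether gene number accounts for the difference between core genes and copies was not tested.

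**Figure D4:**
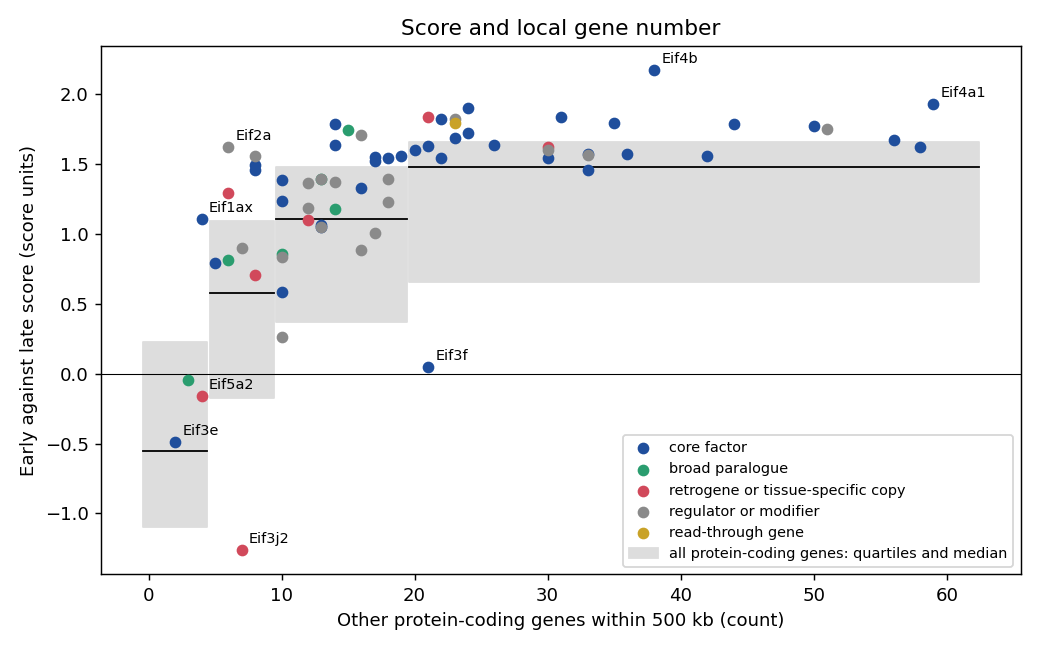
Early against late score of each of the 72 members (vertical axis, score units) against the number of other protein-coding genes within 500 kb (horizontal axis). Grey boxes and black lines give the quartiles and medians of all protein-coding genes in 4 classes of gene number; Eif3f stands low with 21 neighbours and Eif1ax high with 4.

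The median distance to the nearest change of sign, in early and late runs alike, was 793 kb for core genes and 701 kb for copies. It was 603 kb for broad paralogues, 305 kb for regulators and 489 kb for all protein-coding genes. The value for copies was that of Eif5a2, which lies in a late run, as does Eif3j2 (765 kb). Copies ran from 22.5 kb (Eif2s3y) to 1800 kb (Eef1a2). The runs of 1 sign that held core genes, late ones included, had a median length of 3.56 Mb. That length was 1.57 Mb for copies, 2.97 Mb for broad paralogues, 2.44 Mb for regulators and 2.25 Mb for all protein-coding genes. Eif3l, Eif3d and Eef1d lie in the same early run of 10.9 Mb on chromosome 15, and the broad paralogue Eif4g3, a gene of 215 kb, lies in 1 of 10.8 Mb on chromosome 4, with 1.90 at its lower-coordinate end and 1.34 at the higher one. Some core genes lay in short early runs. The run of Eif3h spanned 0.43 Mb and that of Eif3a 0.67 Mb, and that of Eef1g, with 33 other genes within 500 kb, 0.91 Mb.

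Annotated pseudogenes that carry a factor name lay on both sides of 0, in a share close to that of pseudogenes in general. Of 14 such entries, 6 (42.9%) had a score above 0 and the median was -0.54, from Eef1a1-ps1 at -1.59 to Eif2s3x-ps1 at 1.80. Among all 9515 annotated pseudogenes with a score 45.8% lay above 0, with a median of -0.18. The 4 pseudogenes named Eif3s6, the older name of Eif3e, had -1.42, -1.32, -0.97 and 0.39. Eef1a1-ps1 and Eef1a1-ps2 had -1.59 and -1.38, far from the 1.53 of Eef1a1. Eif4a3l2, a second copy of Eif4a3, is annotated as a pseudogene and had 0.0095.

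Other translation genes outside the name pattern were mostly early except for copies. Of 27 cytosolic genes 26 (96.3%) lay above 0 with a median of 1.38, and of 9 mitochondrial factor genes all 9, with a median of 1.34. For all protein-coding genes the share was 73.5% and the median 1.02. The highest was Abcf3 with 1.89, and the exception was Pelo, which encodes a ribosome rescue factor, with -0.67. Of 8 copies 3 lay above 0, with a median of -0.32, against 5 of 7 and 1.10 for the copies of factor genes. The poly(A)-binding protein copies Pabpc2 (-1.52), Pabpc5 (-1.36) and Pabpc6 (-0.70), the helicase copy D1Pas1 (-0.36) and Gspt2 (-0.28), a copy of the release factor gene Gspt1 (1.35), lay below 0. Pabpc1l, an oocyte gene, had 1.51, Mcts2, a copy of Mcts1 on chromosome 2, had 1.74, and the Y-linked Ddx3y had 0.34. Other protein-coding genes within 500 kb numbered 2 for Pabpc2, 1 for Pabpc5, 0 for Pabpc6, 4 for D1Pas1 and 8 for Gspt2. They numbered 30 for Pabpc1l, 34 for Mcts2 and 5 for Ddx3y. Of all genes with 0 to 4 such neighbours, 31.1% lay above 0. Whether gene number accounts for the scores of these copies was not tested.

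**Figure D5:**
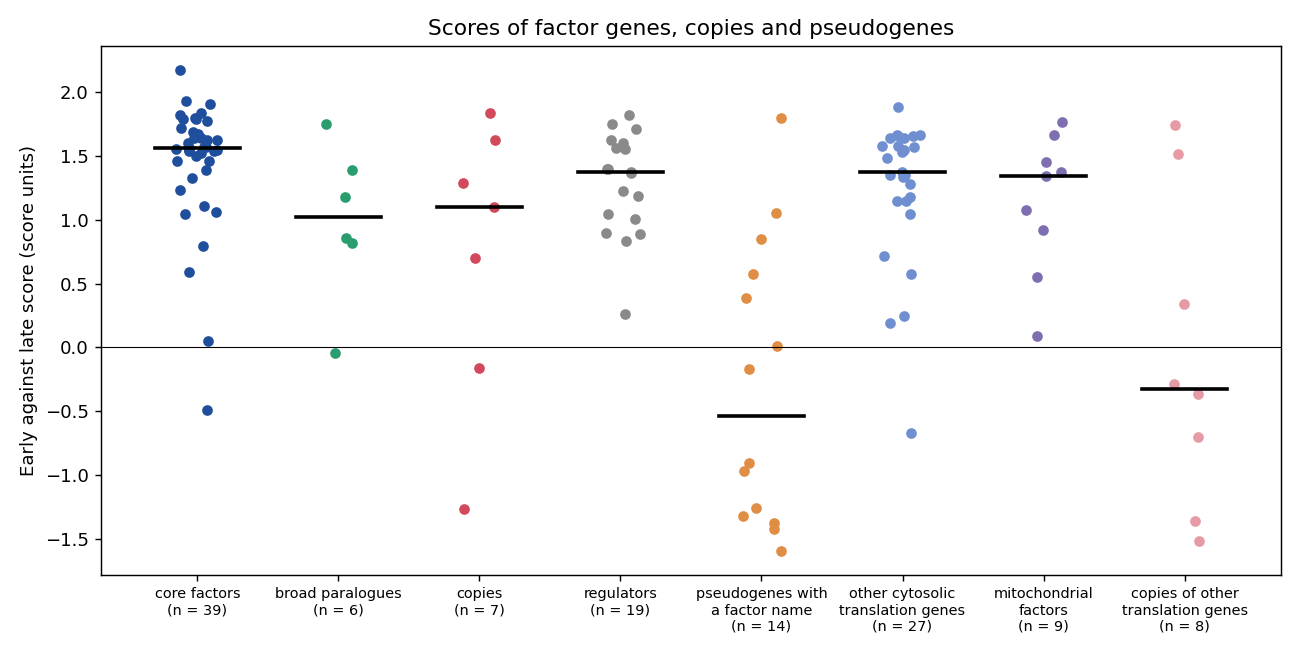
Early against late score (vertical axis, score units) of each gene, 1 point per gene, for classes of factor genes, pseudogenes and other translation genes; black bars are medians. Core factors, regulators, other cytosolic and mitochondrial genes have medians from 1.34 to 1.56, while the pseudogenes (-0.54) and the copies of other translation genes (-0.32) have medians below 0.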

How the data were processed

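Per the submitters' processing notes, reads of the early and the late S phase library were aligned with Bowtie2 to mm10. The authors' deposited table holds a score for each of 384798 positions (median spacing 5778 bp, 4 without a value), which joins both libraries and is smoothed over 300 kb, so neighbouring genes share signal. How reads were counted and scaled, the log base and the zero are not stated in the sources used here. There were 0 unused columns of per-sample values.

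Genes came from a RefSeq table of GRCm38.p6, whose chromosomes are those of mm10, without 348 rows of scaffolds. A gene took the value nearest its midpoint, within 100 kb (median distance for members 1.68 kb). With 1 library per fraction no test was run and depth is unknown. Members, lists and classes were chosen with earlier results of these data known. Any member could be named. Full values were planned for copies with their core genes, members below 0, the extremes of each role, and the neighbours of copies and members below 0. Lookup and run finding were tested on simulated data (Python 3.11.15, pandas 2.3.3, numpy 2.4.6). Alternatives were the zero point, gene ends, means over the gene and 50 kb around it, a distance of 10 kb, autosomes, means for medians, joined neighbours, other classes and thresholds. The start sites, the read-through gene, pair differences over the gene body, Eif4a3l2 as a copy, promoter counts and pseudogenes were added after seeing the data.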

Additional observations from a re-analysis of the deposited data

How the results depend on the processing

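The numbers of members, core genes, copies and other translation genes above 0 stayed within 1.5 times under each alternative run, with 63 of 67 to 70 of 72 for the members, 58 of 72 above 1 (50.5% of protein-coding genes) and 66 of 72 above 0.5 (64.0%). The difference of the medians of core genes and copies kept its sign, from 0.45 to 0.89, against 0.46 as reported. The median difference within the 7 pairs of copy and core gene was -0.93 as a mean over the gene and 50 kb on each side. Setting the zero to the median autosomal position, which adds the same amount to every score, gave a median of 1.84 for the members and 1.65 for the other translation genes. By role it was then 1.62 for eIF2, 1.33 for eIF2 kinases, 1.93 for eIF2B and 1.77 for eIF4E binders. It was 1.87 for elongation, 1.81 for other proteins with a factor name and 1.90 for Eif6 and Etf1. Eif6 and Etf1 alone formed the role named subunit joining and release, and Eif5b was counted under scanning and start codon. Means in place of medians gave 1.30 for the members and 0.98 for the other translation genes, since the distributions have a late tail. Eif5a2 turned to 0.14 with that zero point. Eif4e3 turned to 0.26 with it, to 0.020 at its lower-coordinate end and to 0.011 as a mean over the gene and 50 kb on each side. No other member changed sign. No paired analysis was possible because each fraction has 1 library and the result comes from no test. Without replicates or depth, no difference between genes can be set against experimental error.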
